A study of Mus musculus with 12 samples.

Results

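The arrays described here set a control line of mouse embryonic stem cells against the uninfected parent from which it was made. The control hairpin line was infected with lentivirus carrying a hairpin labelled non-targeting, whereas the parent, IB10, was neither infected nor selected. The 4 arrays whose titles name the control hairpin, cultures A to D, were taken from the 12 arrays of a study of the histone demethylase Kdm5c, and the other 8 arrays carried the lines shKdm5c#1 and shKdm5c#2, with 4 cultures each. On every array a culture of a hairpin line was hybridised in one dye together with RNA of untreated IB10 cells in the other dye. The control line was in Cy3 on arrays A and C and in Cy5 on arrays B and D, with IB10 in the opposite dye.

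According to the labels, IB10 is a derivative of the E14 embryonic stem cell line, and all 3 hairpin lines were made from it with virus packaged in Cos7 cells, polybrene to aid entry, repeated infection and puromycin selection for the pLKO-puro vector. Colonies that survived were combined, so that each hairpin is represented by 1 polyclonal line. Infected and uninfected cells grew on gelatin in serum with leukemia inhibitory factor (LIF), and no feeder layer is mentioned. The IB10 RNA was taken as 1 preparation common to all arrays, so the ratio of control line over IB10 was tested against 0, and that test leaves out the spread among uninfected cultures. Each line is 1 polyclonal line, so the p-values measure the spread among cultures within lines, pooled over the 3 lines, which may be technical. Infection, drug selection and the choice of surviving colonies all differ between the control line and IB10 and cannot be told apart.

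Embryonic stem cells in serum and LIF form a mixed population that moves between a naive state, marked by transcription factors such as Klf4, Tbx3 and Nr0b1, and states closer to the later epiblast, marked by Fgf5, Otx2 and Dnmt3b, with a few cells that express early lineage genes such as Brachyury (T). Viral RNA and double-stranded RNA are sensed in many cell types by receptors such as Ddx58 and Ifih1. Their signal and interferon lead to the induction of antiviral effectors and of antigen presentation genes, although embryonic stem cells are known for a weak interferon response. Hairpins expressed from pLKO vectors enter the microRNA pathway through Dicer and Argonaute proteins, and puromycin is a substrate of the transporters Abcb1a and Abcb1b.

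The control hairpin is shown because it is the only designed difference in sequence between the control vector and the Kdm5c vectors. It is printed 5′ to 3′ as the labels give it, with the antisense arm in capitals, and again as the antisense arm alone with its bases 2 to 8 in capitals.
control hairpin insert: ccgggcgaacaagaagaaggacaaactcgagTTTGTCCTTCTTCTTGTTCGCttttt
antisense arm: tTTGTCCTtcttcttgttcgc
The insert has 57 bases, with arms of 21 bases on either side of a loop of 6 bases. Of 1738 mature mouse microRNAs in the RefSeq table, 0 have the same bases 2 to 8 as the antisense arm as written, and where Dicer cuts this hairpin was not measured.

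Ratios are log2 of the control line over IB10, so that a positive value means higher in the control line, and 18322 genes were tested. A gene was called when its limma p-value, adjusted by Benjamini-Hochberg over all genes, was under 0.05. In the control line 4816 genes were called, 26.3 percent of all genes, of which 2308 were higher (12.6 percent of all genes) and 2508 lower (13.7 percent) than in IB10. Most of the differences were small. The median standard error was 0.03, and 92 genes (0.502 percent of all genes) were called with a difference of at least 1.5-fold, 23 of them higher and 69 lower. At 2-fold or more, 3 genes were higher and 11 lower. Of the 4816 called genes, 4182 had the same sign on all 4 arrays.

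**Figure D1:**
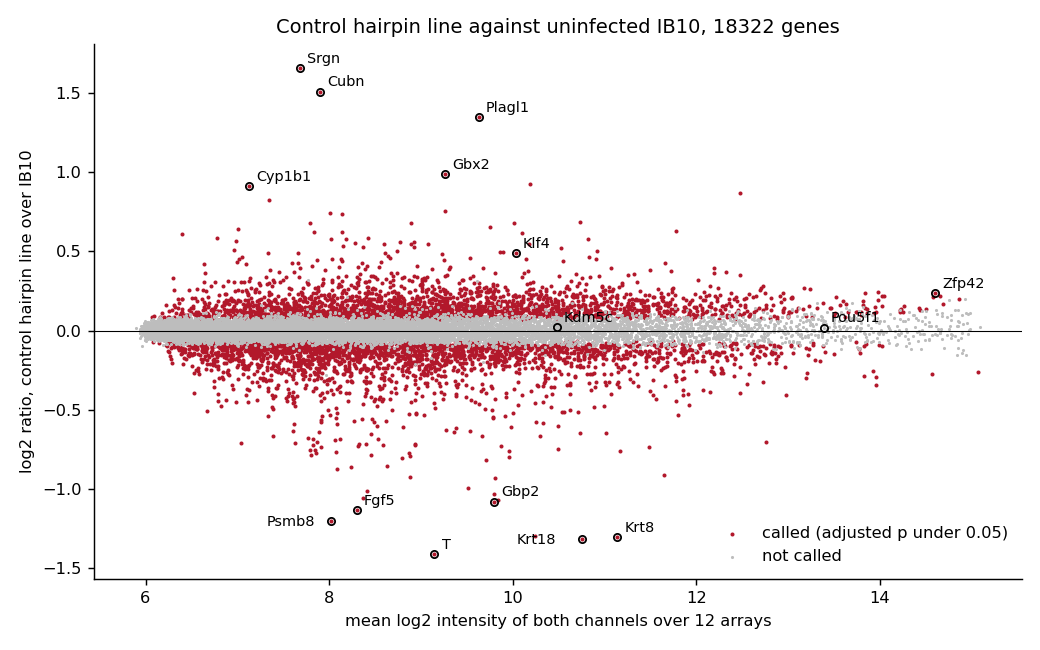
Each point is 1 of 18322 genes, with mean log2 intensity over 12 arrays on the horizontal axis and the log2 ratio of the control hairpin line over IB10 on the vertical axis; called genes are red, and named genes are circled. The ratios run from -1.41 for T to 1.66 for Srgn, and Pou5f1 and Kdm5c lie near 0.

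Between 86.0 and 96.4 percent of gene spots on the control arrays stood above background in the channel of the control line, against 84.6 to 95.6 percent in the channel of IB10. Ratios differed by dye: as measured, arrays of the same dye orientation correlated at r = 0.859 (A and C) and r = 0.795 (B and D) across genes, and arrays of opposite orientation at 0.223 to 0.272. After removal of the fitted dye effect all pairs correlated at 0.698 to 0.847. Genes are not independent replicates, and these correlations describe the arrays only. The means below weight both dye orientations equally, and the arrays differ in no batch that the files record. Fewer cells of a type and less RNA per cell cannot be told apart in any of these values.

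Kdm5c itself, the target of the other hairpins, did not pass the test in the control line. It stood at -0.01, 0.09, -0.01 and 0.00 log2 on arrays A to D, with a mean of 0.02 (95 percent interval -0.06 to 0.09), whereas its ratio over IB10 was -0.62 in shKdm5c#1 and -0.68 in shKdm5c#2. Markers of embryonic stem cells were bright in both channels. Pou5f1, the central pluripotency factor, had a ratio of 0.02 (adjusted p = 0.744), Sox2, its partner, 0.03 (adjusted p = 0.438), Nanog 0.11 (adjusted p = 0.0789) and the orphan receptor Esrrb 0.10 (adjusted p = 0.154). None of these 4 passed the test. Of the other markers, Tdgf1 (-0.19, adjusted p = 4.53e-05) and Utf1 (-0.14, adjusted p = 0.0192) were called lower. Klf4 (0.49), Zfp42 (0.24) and Dppa5a (0.22) were called higher, Zfp42 and Dppa5a with opposite signs by dye.

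The highest ratios of the control line were those of Srgn, Cubn and Plagl1. Srgn, the core protein of the proteoglycan serglycin, stood at 1.71, 1.60, 1.61 and 1.70 log2 on arrays A to D. Cubn, the endocytic receptor cubilin of visceral endoderm and kidney, stood at 1.69, 1.35, 1.45 and 1.54. All 4 arrays lay far above the IB10 level, with means of 1.66 ± 0.03 (SE, 3.15-fold, adjusted p = 8.21e-15) for Srgn and 1.51 ± 0.04 (2.85-fold, adjusted p = 2.78e-13) for Cubn. The SE comes from the fit that pools the spread over the 3 lines. With the dye effect removed, the standard deviation of the 4 control cultures was 0.06 for Srgn and 0.145 for Cubn. Plagl1, an imprinted zinc finger gene, stood at 1.29, 1.38, 1.34 and 1.38 (mean 1.35, 2.54-fold, adjusted p = 9.74e-12). That value comes from its brighter probe, and its dimmer probe gave 0.05 and was not called.

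After these came Gbx2, a homeobox gene induced by LIF, at 1.09, 0.99, 1.01 and 0.86 on arrays A to D (mean 0.99, 1.98-fold), Aard (0.93), the cytochrome P450 gene Cyp1b1 (0.91, 1.88-fold), the imprinted hydrolase gene Mest (0.87) and Stra8 (0.82), a gene that germ cells express on entry into meiosis. Ceacam1, a cell adhesion molecule (0.75), Robo4, a guidance receptor of endothelium (0.74), the drug efflux transporter Slc47a1 (0.73), Rdm1 (0.69), Dcaf12l1 (0.68), Crybg3 (0.68) and Inhbb, which encodes the beta B subunit of activin and inhibin (0.68), made up the 15 highest. All 4 arrays were above 0 for each of these genes. The brightest probe of Ceacam1 gave 0.75, while 3 dimmer probes gave 0.05 to 0.37, and the second probe of Inhbb gave 0.01 and was not called.

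The lowest ratio was that of T, Brachyury, the T-box factor of the primitive streak. T stood at -1.40, -1.53, -1.26 and -1.46 log2 on arrays A to D, which is 37.5 percent of the IB10 level on average (mean -1.41 ± 0.05, SE, n = 4, adjusted p = 2.83e-12). Krt18 and Krt8, the keratin pair of simple epithelia, followed at -1.28, -1.34, -1.27 and -1.37 for Krt18 and at -1.24, -1.30, -1.36 and -1.31 for Krt8. All arrays lay below the IB10 level, and the keratins fell to 40.2 and 40.5 percent of it, with means of -1.32 and -1.30. A second probe of Krt8 gave -1.34.

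Pim2, a survival kinase downstream of cytokine receptors, fell to 40.8 percent of IB10 (-1.29), Psmb8, a catalytic subunit of the immunoproteasome, to 43.6 percent (-1.20) and Fgf5, which epiblast cells secrete, to 45.6 percent (-1.13). The interferon-induced GTPases Gbp2, Gbp3 and Gbp1 had ratios of -1.08, -1.06 and -1.03, and their sequences resemble each other, so that their probes may share signal. The tight junction proteins Cldn7 (-1.07) and Cldn6 (-0.93), the phosphatase subunit gene Ppp4r4 (-1.02), the glutaredoxin gene Glrx (-0.99), the X-linked gene Xlr4b (-0.93) and the transcription factor Irf1 (-0.91) completed the 15 lowest. Xlr4b belongs to a family of near-identical copies, and its dimmer probe gave 0.01 and was not called.

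**Figure D2:**
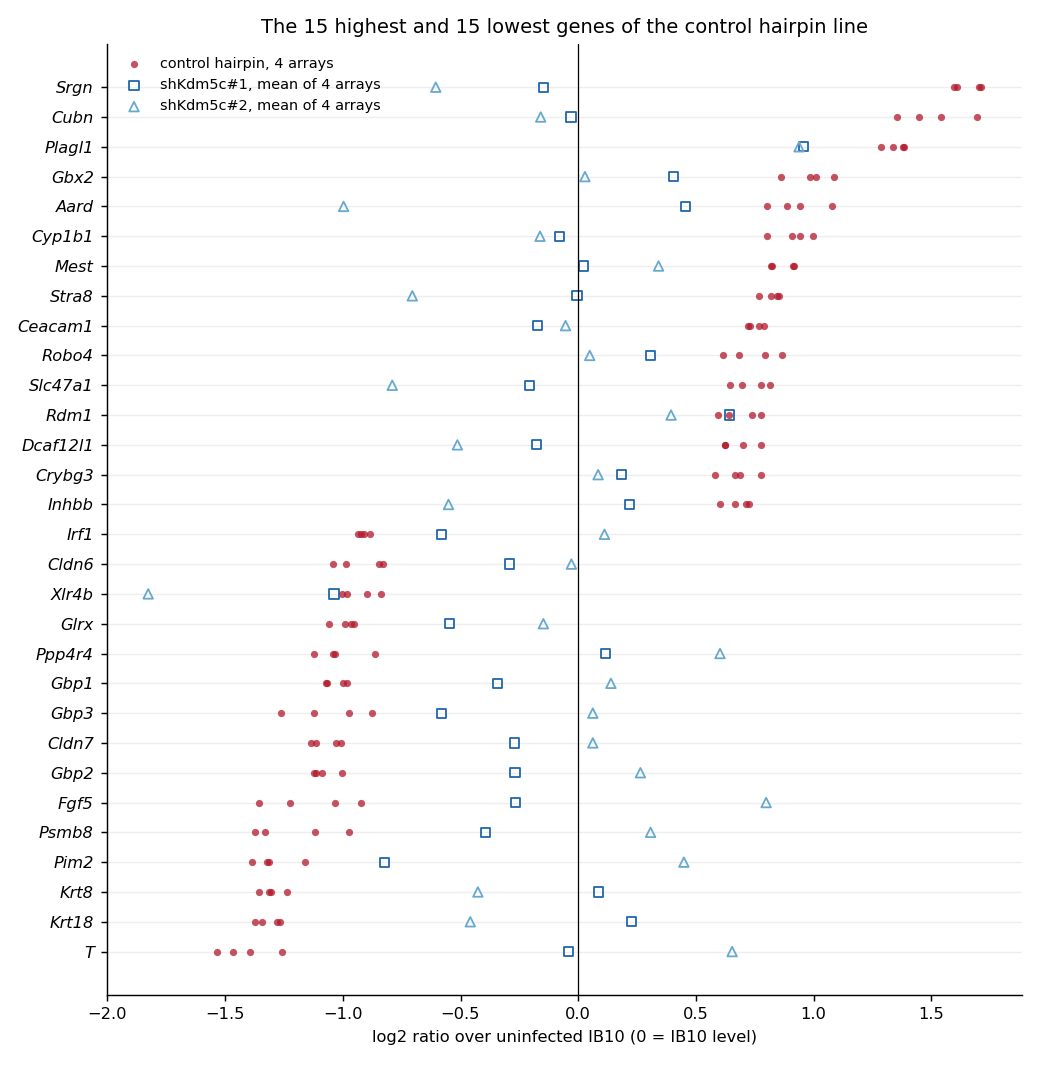
The 15 highest and 15 lowest genes of the control line run down the page by log2 ratio over IB10; red points are the 4 control hairpin arrays, open squares the shKdm5c#1 mean and open triangles the shKdm5c#2 mean. The 4 red points of a gene lie close together, and the open symbols lie nearer to 0 or on the other side of it for most genes, while those of Xlr4b lie farther from 0.

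Genes of epithelial cells were lower together. Of 24 measured genes on the list of epithelial junctions and keratins, 19 fell, 0 rose and 5 did not pass the test, with a median of -0.40, against 13.7 percent of all genes called lower and a median of -0.000863 over all genes. Besides Krt8, Krt18, Cldn7 and Cldn6, the members that fell included the claudin Cldn4 (-0.87), the keratins Krt19 (-0.80) and Krt7 (-0.66), the polarity protein Crb3 (-0.78), the desmosomal protein Dsp (-0.73) and Esrp1 (-0.69), a splicing factor of epithelial transcripts. Epcam, an adhesion molecule that embryonic stem cells express, fell to 75.9 percent of the IB10 level (-0.40), and Cdh1, E-cadherin, to 86.2 percent (-0.21, adjusted p = 0.00121). The basal keratins Krt5 (-0.02) and Krt14 (0.05), the claudin Cldn3 (-0.05), Ovol1 (-0.06) and Tjp1 (0.06) did not pass the test. On all 4 control arrays 21 of the 24 members were above background in the channel of the control line.

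Genes of the interferon response were also lower in the control line than in IB10. Of 44 measured interferon effectors, 25 fell, 1 rose and 18 did not pass the test, with a median of -0.13. Irf1, a transcription factor induced by interferon gamma and an activator of antigen presentation genes, stood at -0.88, -0.91, -0.92 and -0.93 on arrays A to D, 53.1 percent of the IB10 level, and its second probe gave -0.58. Gbp2 stood at -1.11, -1.005, -1.12 and -1.09. In both genes the arrays lay close together and far below 0.

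Among the other effectors, the immunity-related GTPases Irgm1 (-0.82) and Igtp (-0.77), the chemokine Cxcl10 (-0.75), Oasl2 (-0.71) of the oligoadenylate synthetase family and the ADP-ribosyltransferase family member Parp9 (-0.60) fell the most. Isg15, the ubiquitin-like modifier, fell by 0.25 on the log2 scale, and Ifit1 by 0.20. Ifit2 (-0.01), Ifit3 (-0.06), Rsad2 (-0.01), Mx1 (-0.00), Mx2 (-0.03), Usp18 (-0.03) and Oasl1 (0.01), which are typical targets of type I interferon, did not pass the test. The receptor subunit Ifnar2 was the 1 member that rose (0.12), while Ifnar1 fell by 0.19, and Stat2 (0.04), Irf9 (0.06), Jak1 (0.05) and Tyk2 (-0.05) were not called.

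Of 16 measured genes of antigen presentation and the immunoproteasome, 13 fell and 1 rose, with a median of -0.20. Psmb8 stood at -1.12, -1.37, -0.97 and -1.33 on arrays A to D, with its second probe at -0.71. The trimming peptidase Erap1 (-0.72), the proteasome activator Psme1 (-0.49), the class I heavy chain H2-K1 (-0.41), the peptide transporters Tap2 (-0.32) and Tap1 (-0.28) and the immunoproteasome subunit Psmb9 (-0.23) fell as well. B2m, the light chain of class I molecules, fell by 0.13 (adjusted p = 0.00700), and the chaperone Calr rose by 0.11. Class I genes have near-identical copies, and a dimmer second probe of Erap1 gave -0.07 and was not called.

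Several sensors upstream were lower too. Of 20 measured genes of cytosolic nucleic acid sensing, 8 fell, 1 rose and 11 did not pass the test (45 percent called, against 26.3 percent of all genes), with a median of -0.03. Ifih1, the sensor MDA5, fell by 0.45, the DNA sensor Zbp1 by 0.35, the nuclease Samhd1 by 0.27, the kinase Eif2ak2 (PKR) by 0.20 and Ddx58 (RIG-I) by 0.18, while E330016A19Rik, which RefSeq lists among the names of cGAS, rose by 0.17. Of 26 genes that restrict retroviruses, 7 fell and 2 rose (34.6 percent called). Pphln1, a subunit of the silencing complex HUSH, was lowest at -0.36, and Atf7ip, a partner of the methyltransferase Setdb1, highest at 0.20. The other gene that rose was D14Abb1e, in RefSeq Tasor, also a HUSH subunit (0.14, with a dimmer probe at 0.07 that was not called). Setdb1 itself (-0.08, adjusted p = 0.0543) did not pass the test.

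Promoters of the 4 lowest genes of the interferon and antigen presentation lists are shown because these genes moved together. The windows come from RefSeq on GRCm38.p6 and span 250 bases before to 50 bases after the start, and capitals mark matches on either strand to TTCNNNGAA, the letters of a gamma-activated site (GAS), or GAAA followed by any 2 bases and GAAA again, the letters of an interferon-stimulated response element (ISRE). Where a gene has several starts, the first in the table is shown.
Psmb8, chr17:34197945-34198244, plus strand: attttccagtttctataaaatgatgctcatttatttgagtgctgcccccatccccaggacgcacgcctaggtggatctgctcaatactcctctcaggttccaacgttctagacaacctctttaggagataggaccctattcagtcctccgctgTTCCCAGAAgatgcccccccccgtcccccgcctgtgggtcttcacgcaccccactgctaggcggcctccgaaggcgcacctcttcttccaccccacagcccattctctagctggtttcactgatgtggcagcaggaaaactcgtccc
Gbp2, chr3:142620413-142620712, plus strand: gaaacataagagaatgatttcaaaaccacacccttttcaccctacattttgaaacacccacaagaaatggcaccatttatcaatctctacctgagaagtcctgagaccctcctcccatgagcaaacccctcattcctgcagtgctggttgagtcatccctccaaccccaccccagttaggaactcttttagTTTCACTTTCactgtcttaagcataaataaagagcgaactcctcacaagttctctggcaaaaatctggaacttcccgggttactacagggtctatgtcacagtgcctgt
Gbp3, chr3:142559794-142560093, plus strand: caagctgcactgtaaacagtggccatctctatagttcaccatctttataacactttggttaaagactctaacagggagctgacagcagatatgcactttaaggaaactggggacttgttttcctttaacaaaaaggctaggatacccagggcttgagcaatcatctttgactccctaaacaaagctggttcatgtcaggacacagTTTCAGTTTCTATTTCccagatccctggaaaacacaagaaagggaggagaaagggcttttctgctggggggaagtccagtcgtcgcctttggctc
Irf1, chr11:53769764-53770063, plus strand: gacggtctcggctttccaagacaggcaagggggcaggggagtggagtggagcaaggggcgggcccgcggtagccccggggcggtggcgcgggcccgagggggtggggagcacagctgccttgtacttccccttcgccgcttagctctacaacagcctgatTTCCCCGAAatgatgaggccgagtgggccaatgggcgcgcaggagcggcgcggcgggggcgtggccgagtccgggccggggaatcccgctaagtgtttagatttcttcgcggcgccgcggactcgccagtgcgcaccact
The windows of Psmb8 and Irf1 hold 1 GAS match each, that of Gbp2 holds 1 ISRE match and that of Gbp3 holds 2 overlapping ISRE matches. Among all 32851 RefSeq promoter windows, 8.3 percent hold the GAS letters and 3.44 percent the ISRE letters. Of the 38 genes on either list that were called lower, 31 matched a RefSeq symbol, and of their 36 windows 11 hold GAS letters (30.6 percent) and 16 hold ISRE letters (44.4 percent). Over all 60 measured genes of these lists, called or not, 49 matched, and of 56 windows 13 hold GAS letters (23.2 percent) and 21 hold ISRE letters (37.5 percent). A match is a description of the letters and does not show binding.

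**Figure D3:**
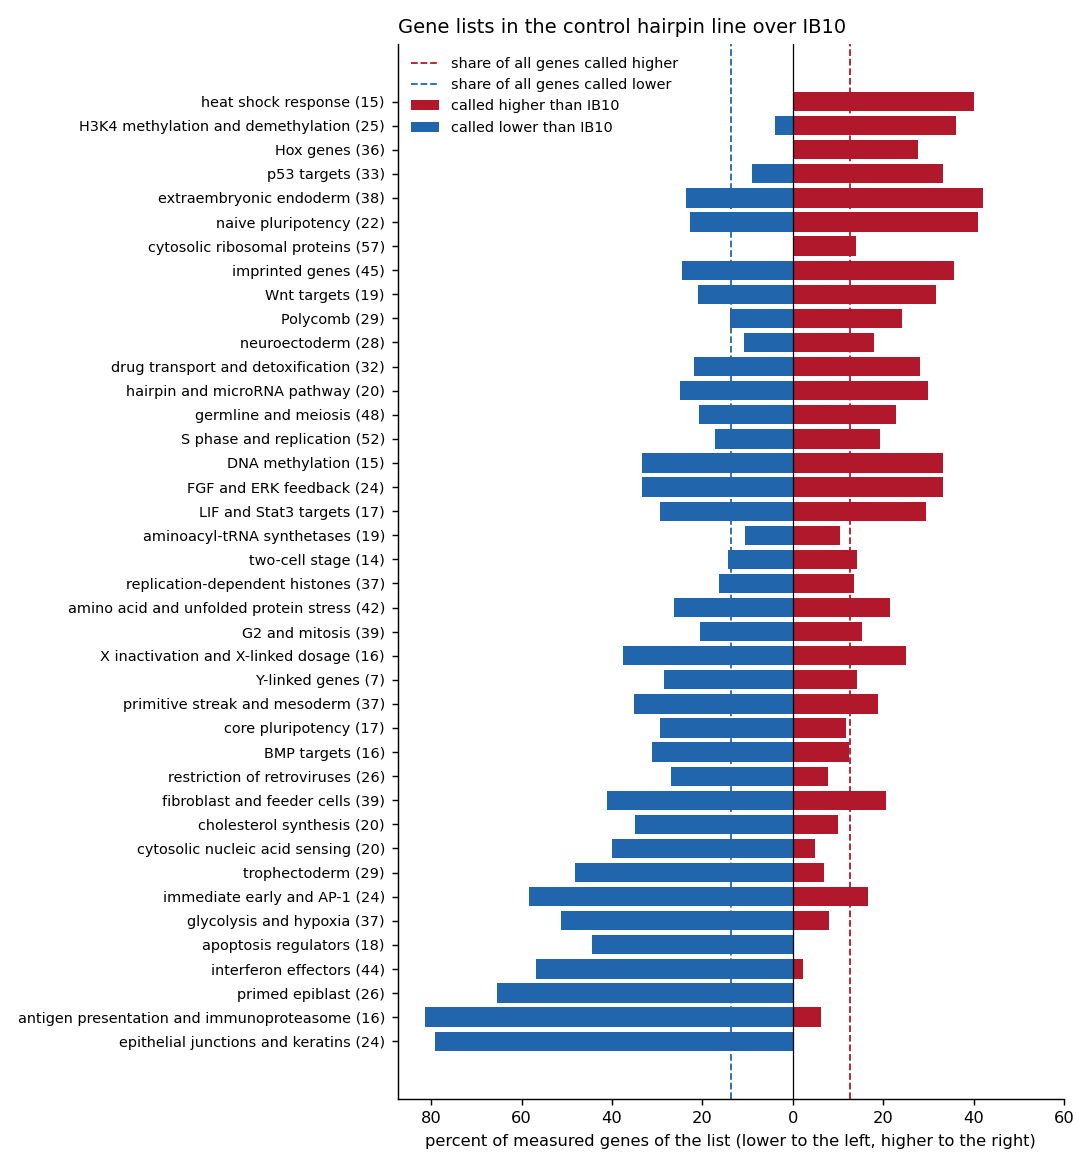
Bars give the percent of measured genes of each of 40 lists that were called higher (red, to the right) or lower (blue, to the left) in the control line over IB10, with the number measured in brackets; dashed lines mark the shares over all genes, 12.6 percent higher and 13.7 percent lower. The antigen presentation, epithelial and primed epiblast lists reach farthest to the left.

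Genes of the primed epiblast were lower, and several genes of the naive state were higher. Of 26 measured primed epiblast genes, 17 fell, 0 rose and 9 did not pass the test, with a median of -0.19. Fgf5 stood at -1.03, -1.36, -0.92 and -1.22 on arrays A to D, all below IB10. Fst, the activin antagonist follistatin (-0.79), the DNA methyltransferase Dnmt3b (-0.74, 60.0 percent of IB10), the POU factor Pou3f1 (-0.71), the homeobox factor Otx2 (-0.67, 63.0 percent) and Lefty2, a Nodal antagonist (-0.58), also fell. Lefty1 (0.02), Nodal (0.05), Cer1 (-0.05) and Dnmt3a (0.01) did not pass the test.

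Of 22 naive pluripotency genes, 9 rose, 5 fell and 8 did not pass the test, with a median of 0.11. Klf4, a reprogramming factor induced by LIF, stood at 0.56, 0.45, 0.54 and 0.41 on arrays A to D, all above IB10 (mean 0.49, 1.40-fold, adjusted p = 2.5e-10). Tbx3 (0.43), the methylcytosine dioxygenase Tet2 (0.34), Nr5a2 (0.24) and Nr0b1 (0.24) rose as well, and Dppa3, also a naive marker, fell by 0.54. Zfp42 (Rex1) had a called mean of 0.24, but its arrays stood at -0.31, 0.59, -0.23 and 0.89, below 0 with the line in Cy3 and above 0 with the line in Cy5. Dppa5a did the same, with -0.40, 0.50, -0.19 and 0.97 around a called mean of 0.22, so neither has a direction independent of the dye.

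Of 17 core pluripotency genes, 2 were called higher, namely Zfp42 and Dppa5a with their opposite signs by dye, and 5 fell, among them Lin28 (-0.27) and Tcf7l1 (-0.25). Of 17 LIF and Stat3 targets, 5 rose and 5 fell, led by Gbx2 (0.99) and Pim2 (-1.29), and Socs3, the feedback inhibitor of the LIF receptor, rose by 0.32. Of 24 FGF and ERK feedback genes, 8 rose and 8 fell. The inhibitors Spry4 (0.63), Spred1 (0.39), Spry2 (0.35) and Spred2 (0.24) were among those that rose, and Ier3 (-0.61), Dusp14 (-0.45), Dusp1 (-0.37) and Fos (-0.35) among those that fell.

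Primitive streak genes were called in both directions. Of 37 measured streak and mesoderm genes, 13 fell, 7 rose and 17 did not pass the test, with a median of -0.00. The ligand Wnt3 (-0.73, 60.3 percent of IB10), the Wnt target Sp5 (-0.67), the retinoic acid hydroxylase Cyp26a1 (-0.58), Eomes (-0.36), Mixl1 (-0.25), Fgf8 (-0.22), Axin2 (-0.17) and Evx1 (-0.12) fell. The members that rose included Gata6 (0.64), Tcf15 (0.52), Twist1 (0.38), Foxa2 (0.25), Cdx2 (0.23) and Snai2 (0.19), most of which also act outside the streak. Goosecoid (Gsc, -0.10, adjusted p = 0.0736) did not pass the test. Of 19 Wnt targets 6 rose and 4 fell, with the Wnt antagonists Dkk1 (0.45) and Sfrp1 (0.44) among those that rose, and of 16 BMP targets 2 rose and 5 fell, with Id1 at -0.27.

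Among lineage markers, extraembryonic endoderm genes split into 2 directions. Of 38 measured, 16 rose and 9 fell, with a median of 0.04. Besides Srgn and Cubn, the members that rose included the transcription factor Gata6, at 0.66, 0.61, 0.61 and 0.67 on arrays A to D (1.56-fold, with dimmer probes at -0.02 and 0.17), the endocytic adaptor Dab2 (0.62, 1.54-fold), Sox7 (0.51), the laminin chain Lama1 (0.50) and Amn (0.14), the membrane partner of cubilin. Those that fell the most were keratins and others that also stand on the epithelial or epiblast lists (Krt18, Krt8, Krt19 and Fst). Gata4 (-0.00, adjusted p = 0.976) and Afp (-0.03, adjusted p = 0.358), both defining markers, did not pass the test, and Sox17 rose by 0.07. Of the 5 defining markers, Gata4, Gata6, Sox17 and Dab2 were above background on all 4 arrays in both channels. Afp was above background on 4 arrays in the control channel and on 3 in that of IB10. The summed signal of the 38 genes was 17568 to 25291 in the control line and 18560 to 26459 in IB10, lower in the control line on all 4 arrays. That sum holds Krt8, with a mean signal of 1161 in the control line and 2865 in IB10, and Krt18, with 860 in the control line and 2139 in IB10. These mean signals were scaled between arrays and the sum was not, and the part of the keratins in the lower sum was not tested.

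Trophectoderm genes were mostly lower, 14 of 29 against 2 that rose, with a median of -0.08. The keratins led again, Eomes fell by 0.36 and Gata3 by 0.14, and Cdx2 rose by 0.23. Elf5 (-0.07) did not pass the test. Their summed signal was 15035 to 22734 in the control line and 19117 to 28322 in IB10, lower on all 4 arrays. That sum also holds Krt8, with a mean signal of 1161 in the control line and 2865 in IB10, and Krt18, with 860 and 2139. Of 28 neuroectoderm genes, 5 rose, led by Pax6 (0.59, with dimmer probes at 0.10 and 0.00), En2 (0.32) and Dlx2 (0.26), and 3 fell. Their called share, 28.6 percent, was near the 26.3 percent over all genes.

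The list of fibroblast and feeder genes served to look for other cells in the cultures. Of 39 measured, 16 fell and 8 rose, with a median of -0.00. The smooth muscle and contractile genes Cnn1 (-0.69), Tagln (-0.49) and Acta2 (-0.32), the chemokine Ccl2 (-0.64) and the surface marker Thy1 (-0.41) fell, while the collagens Col3a1 (0.23), Col1a2 (0.21) and Col1a1 (0.09) rose. The summed signal was 23773 to 34522 in the control line and 25643 to 37289 in IB10, lower in the control line on all 4 arrays. Thy1 was above background on 3 arrays in each channel, and Postn on 3 in the control channel and 4 in that of IB10. The collagens named here, Lum and Dcn were above background on all 4 arrays in both channels. The part of other cell types in the gene differences above was not tested.

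Genes that respond to acute signals were lower. Of 24 immediate early and AP-1 genes, 14 fell and 4 rose, with a median of -0.16. Ier3 (-0.61), Cyr61 (-0.41), the mRNA decay factor Zfp36 (-0.39), the phosphatase Dusp1 (-0.37), Fos (-0.35) and Jun (-0.26) were among those that fell. Egr1 (-0.04), Junb (0.02) and Fosb (0.02) did not pass the test, and Ier2 rose by 0.23. The handling of the cells before lysis is not given in the labels, and its part in these values was not tested.

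Of 37 glycolysis and hypoxia genes, 19 fell and 3 rose, with a median of -0.10. The lactate transporter Slc16a3 stood at -0.56, -0.64, -0.59 and -0.81 on arrays A to D, all below IB10. The mitophagy receptor Bnip3 (-0.58), the enzymes Aldoc (-0.39), Tpi1 (-0.38) and Pfkl (-0.30) and the glucose transporter Slc2a1 (-0.29) also fell, and P4ha2, a collagen hydroxylase subunit, rose by 0.20. Pgk1 was called at -0.28 on average, but its arrays stood at -0.84, 0.09, -0.66 and 0.29, below 0 with the line in Cy3 and above 0 with the line in Cy5. Of 20 cholesterol synthesis genes 7 fell and 2 rose, with Fdft1 at -0.22 and Sc4mol at 0.27.

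Stress genes did not move as a block. Of 15 heat shock genes 6 rose and 0 fell (4 fell on the arrays with the line in Cy3 alone), led by Hspa1a (0.47), Dnajb1 (0.43) and Hspa1b (0.23), and the pair Hspa1a and Hspa1b is nearly identical in sequence. Of 33 p53 targets 11 rose and 3 fell, with a median of 0.04, and 1 rose when arrays were only centred on their median. Zmat3 (0.28), Plk3 (0.23), Gadd45a (0.19) and the cyclin Ccng1 (0.16) rose, whereas the cell cycle inhibitor Cdkn1a fell by 0.13 (adjusted p = 0.0176), Ddit4 fell by 0.38, and Mdm2 (0.08, adjusted p = 0.0937) did not pass the test. Of 42 amino acid and unfolded protein stress genes 9 rose and 11 fell. Atf4, the transcription factor that drives the amino acid response, stood at -0.43, -0.51, -0.37 and -0.57 on arrays A to D, 72.2 percent of the IB10 level, its target Cth fell by 0.46, and the ER-associated degradation gene Herpud1 rose by 0.45. Of 18 apoptosis regulators 8 fell and 0 rose (0 fell with median centring), with Bid at -0.20. Mcl1 has no settled direction, since its brighter probe gave -0.18 and its second probe 0.16, both called.

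Genes of the hairpin pathway and of drug transport were called in both directions. Of 20 genes of the hairpin and microRNA pathway 6 rose and 5 fell (55 percent called, against 26.3 percent of all genes), with a median of -0.000318. The uridylyltransferase Zcchc11 (0.30) and the Argonaute gene Eif2c1 (0.17) rose, and Dicer1 (-0.12, adjusted p = 0.0153), the slicer Argonaute Eif2c2 (-0.11, adjusted p = 0.00815), the exporter Xpo5 (-0.08) and Rnasen, which encodes Drosha (-0.08), fell. Over the alternative settings, the adjusted p went up to 0.348 for Dicer1 and 0.469 for Eif2c2. Of 32 drug transport and detoxification genes 9 rose and 7 fell, 50 percent called. Abcb1a (0.08, adjusted p = 0.371) did not pass the test, Abcb1b fell by 0.07 (adjusted p = 0.0319, and up to 0.885 over the alternatives, 8 of which end the call), the efflux pump Abcg2 rose by 0.21, Cyp1b1 rose most, and the glutathione transferases Gstm1 (-0.46), Gstm2 (-0.43) and Gstp1 (-0.28) fell.

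Among developmental and chromatin genes, 10 of 36 Hox genes rose and 0 fell, with a median of 0.03. The called share was 27.8 percent, where 26.3 percent of all genes were called and 12.6 percent called higher. Hoxb2 stood at 0.64, 0.69, 0.57 and 0.55 on arrays A to D and Hoxa10 at 0.60, 0.57, 0.48 and 0.68. Both genes were above IB10 on every array, and Hoxd13 (0.34, with a dimmer probe at 0.02 that was not called) and Hoxa5 (0.33) followed. These Hox genes were dim, although above background on all 4 arrays in both channels. With the background offset included, the mean signal of Hoxb2 was 126 in the control line and 83 in IB10. That of Hoxa5 was 93 in the control line and 74 in IB10. Of 45 imprinted genes 16 rose and 11 fell. Besides Plagl1 and Mest, the actin nucleator Cobl rose by 0.54, while the growth factor Igf2 (-0.61), Sfmbt2 (-0.55, with dimmer probes at -0.02 and -0.05), Gnas (-0.44), the adaptor Grb10 (-0.40) and the cell cycle inhibitor Cdkn1c (-0.40) fell, and H19, the neighbour of Igf2, rose by 0.24.

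Of 25 genes of H3K4 methylation and demethylation 9 rose and 1 fell, with Kdm1b highest at 0.20, and with median centring in place of loess 0 of the 25 were called. Of 29 Polycomb genes 7 rose and 4 fell, with Bmi1 at 0.30 and Suz12 at -0.27, and of 15 DNA methylation genes 5 rose and 5 fell, led by Dnmt3b. Of 48 germline and meiosis genes 11 rose and 10 fell, with Stra8 highest and the synaptonemal complex gene Sycp3 at -0.50. Among 14 genes of the 2-cell stage 2 rose and 2 fell (28.6 percent called, near the 26.3 percent of all genes), and Zscan4c rose by 0.14. Of 16 genes of X inactivation and X-linked dosage 4 rose and 6 fell, with Rbmx lowest at -0.68, and Xist (-0.03, adjusted p = 0.464) did not pass the test. Of 7 Y-linked genes 1 rose and 2 fell, all by at most 0.15.

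Growth genes lay on both sides of the 26.3 percent called over all genes. Of 57 cytosolic ribosomal protein genes 8 rose and 0 fell, 14 percent called in all, but 27 fell on the arrays with the line in Cy3 alone and 27 rose on those with it in Cy5 alone. Of 39 G2 and mitosis genes 6 rose and 8 fell (35.9 percent called), and of 52 S phase genes 10 rose and 9 fell (36.5 percent). Of 37 replication-dependent histones 5 rose and 6 fell (29.7 percent), and of 19 aminoacyl-tRNA synthetases 2 rose and 2 fell (21.1 percent). The largest of these were Hist1h2ae (0.45) and Hist1h4i (0.34), whose family members are alike in sequence.

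Genes of chromosome 8 were higher as a whole. Of 896 genes assigned to it by RefSeq, 360 were called higher (40.2 percent, against 12.6 percent of all genes) and 41 lower, and the median ratio was 0.05. The median was 0.05 on arrays A and C, 0.07 on array B and 0.06 on array D, above that of every other autosome and of the X on each array. On the other autosomes and the X the median lay between -0.010 and 0.005, and 7.11 to 16 percent of genes were called higher. Split by gene order into 4 stretches of 224 genes each, the chromosome had 88, 91, 89 and 92 genes higher, so the higher genes were spread over its length. Among the 502 chromosome 8 genes brighter than the median gene, the median was 0.12, against -0.017 to 0.022 on the other autosomes and the X. Dnajb1, Herpud1, Sfrp1, Sc4mol and Zfp42 are among the genes named above that lie on chromosome 8. The part of the chromosome-wide difference in their ratios was not tested. Chromosome Y, with 10 genes, had a median of -0.03, and -0.11, 0.00, -0.03 and -0.01 on arrays A to D. The ratio over the same IB10 RNA had a chromosome 8 median of 0.03 in shKdm5c#1 and 0.05 in shKdm5c#2 as well. The cause was not tested, and a feature of the hairpin lines cannot be told apart from one of the shared IB10 preparation.

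**Figure D4:**
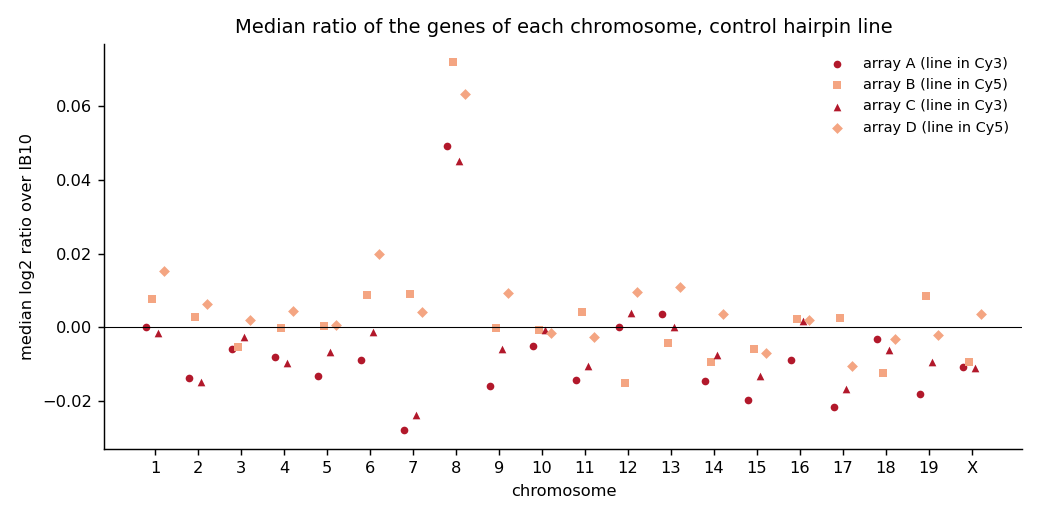
Points give the median log2 ratio of the control hairpin line over IB10 for the genes of each chromosome on each of the 4 arrays; dark points have the line in Cy3 and light points in Cy5. Chromosome 8 stands at 0.05 to 0.07 on the control arrays, while the other autosomes and the X lie closer to 0; chromosome Y, with 10 genes, is not plotted.

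The Kdm5c lines went through the same infection and selection, so the control line was also set against the mean of both Kdm5c lines. In this comparison 3941 genes were called, 21.5 percent of all genes, of which 2156 were higher in the control line (11.8 percent) and 1785 lower (9.74 percent). The highest scanner value was 65314 on the control arrays, 65310 on the shKdm5c#1 arrays and 65312 on the shKdm5c#2 arrays. What this difference reflects is not recorded, and it cannot be told apart from the line.

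All 30 genes with the highest and lowest ratios were called between the control line and the mean of the Kdm5c lines, but they were picked on the control line's ratio, which is 1 side of that difference, so the values below are a description. Srgn was 1.66 in the control line, against -0.15 in shKdm5c#1 and -0.61 in shKdm5c#2, a difference of 2.03 ± 0.04 (SE). Cubn was 1.51 in the control line, against -0.03 in shKdm5c#1 and -0.16 in shKdm5c#2. In neither Kdm5c line did these genes stand above IB10. Plagl1, in contrast, was high in all lines, with 1.35 in the control line and 0.96 in shKdm5c#1 and 0.94 in shKdm5c#2, and its difference was 0.40. Rdm1 was likewise 0.69 in the control line and 0.64 in shKdm5c#1 and 0.39 in shKdm5c#2.

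Among the lowest genes, T was -1.41 in the control line, against -0.04 in shKdm5c#1 and 0.65 in shKdm5c#2, a difference of -1.72. Krt18 was -1.32 in the control line, against 0.23 in shKdm5c#1 and -0.46 in shKdm5c#2, and Krt8 was -1.30, against 0.09 in shKdm5c#1 and -0.43 in shKdm5c#2. Both Kdm5c lines held more of the keratins than the control line, although shKdm5c#2 lay below IB10. Pim2 was -1.29 in the control line, against -0.82 in shKdm5c#1 and 0.45 in shKdm5c#2, and Fgf5 was -1.13, against -0.27 in shKdm5c#1 and 0.80 in shKdm5c#2, so the Kdm5c lines stood on opposite sides of IB10 for both.

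The same held for interferon genes. Psmb8 was -1.20 in the control line, against -0.39 in shKdm5c#1 and 0.31 in shKdm5c#2, Gbp2 was -1.08, against -0.27 in shKdm5c#1 and 0.26 in shKdm5c#2, and Irf1 was -0.91, against -0.58 in shKdm5c#1 and 0.11 in shKdm5c#2. Over the lists, 21 of 44 interferon effectors were lower in the control line than in the Kdm5c lines and 2 were higher, and the median ratios over IB10 were -0.13 in the control line, -0.04 in shKdm5c#1 and 0.01 in shKdm5c#2. Of 16 antigen presentation genes 11 were lower and 0 higher, of 24 epithelial genes 14 were lower and 0 higher, and of 26 primed epiblast genes 15 were lower and 2 higher. The epithelial median was -0.40 in the control line, -0.06 in shKdm5c#1 and -0.05 in shKdm5c#2. For other lists shKdm5c#1 lay nearer to the control line. The antigen presentation median was -0.20 in the control line, -0.15 in shKdm5c#1 and 0.08 in shKdm5c#2. That of primed epiblast genes was -0.19 in the control line, -0.16 in shKdm5c#1 and 0.02 in shKdm5c#2. Naive pluripotency genes had medians of 0.11 in the control line, 0.13 in shKdm5c#1 and -0.10 in shKdm5c#2.

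**Figure D5:**
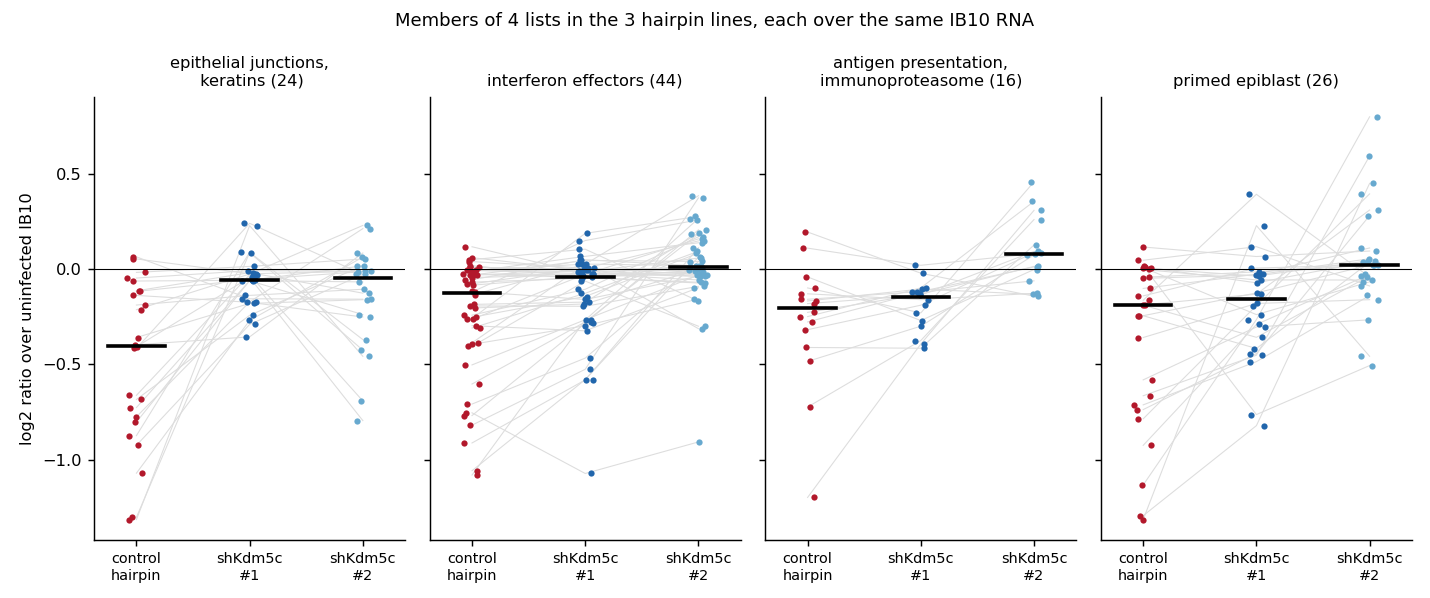
Each panel holds the measured genes of 1 list as points, with the log2 ratio over IB10 on the vertical axis and the 3 lines side by side; black bars are medians and grey lines join the values of a gene. The control line has its median below that of both Kdm5c lines in the epithelial list, at -0.40 against -0.06 and -0.05.

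Other lists had more genes higher in the control line. Of 38 extraembryonic endoderm genes 17 were higher in the control line than in the Kdm5c lines and 6 lower, of 48 germline genes 21 were higher and 8 lower, and of 36 Hox genes 10 were higher and 0 lower. Stra8 was 0.82 in the control line, against -0.00 in shKdm5c#1 and -0.70 in shKdm5c#2. Aard was 0.93 in the control line, against 0.46 in shKdm5c#1 and -0.997 in shKdm5c#2, so the Kdm5c lines stood on opposite sides of IB10. Of 42 amino acid and unfolded protein stress genes 8 were higher in the control line and 18 lower, among the lower ones Atf4, with -0.47 in the control line and 0.64 in shKdm5c#1 and 0.46 in shKdm5c#2.

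Some genes lay on the same side of IB10 in all 3 lines. The chemokine Ccl2 was -0.64 in the control line and -0.55 in shKdm5c#1 and -0.65 in shKdm5c#2, and Cxcl10 was -0.75 in the control line and -1.07 in shKdm5c#1 and -0.91 in shKdm5c#2. Cd44, a surface receptor for hyaluronan, was -0.31 in the control line and -0.30 in shKdm5c#1 and -0.31 in shKdm5c#2. The RNA-binding protein gene Rbmx was -0.68 in the control line and -0.74 in shKdm5c#1 and -0.68 in shKdm5c#2, and the X-linked gene Xlr3c, which has near-identical copies, was -0.85 and -0.81 in shKdm5c#1 and -1.28 in shKdm5c#2. Herpud1, which lies on chromosome 8, was higher in all lines, with 0.45 in the control line and 0.41 in shKdm5c#1 and 0.43 in shKdm5c#2. These genes were chosen after their values were seen, and all lines were read against the same IB10 RNA, so a property of that preparation would appear in each of them.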

How the data were processed

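RNA of 12 cultures, 4 per hairpin line, was compared with IB10 RNA on 2-colour spotted oligonucleotide arrays. Scanner intensity per spot and channel was deposited by the authors and used with its background. The deposited series table holds log2 ratios of normalized Cy5 over Cy3, per the file headers and their match to the spot values; the normalization behind it is not given in the sources used here, and it served as an alternative only. Groups and dyes came from the labels.

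With limma 3.58.1 in R 4.3.3, intensities were background-corrected (normexp, offset 50) and loess-normalized within arrays with control spots at weight 0. Ratios were turned to sample over IB10, and the brightest probe per gene symbol was kept. Of the gene probes 34186 had 1 symbol and 6988 none. All 12 arrays entered 1 linear model of line and dye, which left 8 residual degrees of freedom, and p-values were adjusted by Benjamini-Hochberg over 18322 genes at 0.05. The number of arrays limits the precision. The fit was tested on simulated data. Chromosomes came from RefSeq, for 18271 genes. Python 3.11.15 with pandas 2.3.3 and matplotlib 3.10.9 made summaries and plots.

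The genes named are the 15 highest and 15 lowest called genes and fixed markers. From each of 40 lists, up to 4 called members with the largest absolute ratio, in either direction, were named too. Others were named after their values were seen. The members and lists were chosen with earlier results of these data known. Alternatives changed the dye term, the dye orientation, background, normalization, filter, probe rule, replicate block and the arrays included. Culture letters did not pair the arrays: of 12 same-letter pairs across lines, 4 had correlated deviations with r over 0.1, between -0.275 and 0.284.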

Additional observations from a re-analysis of the deposited data

Results flagged for a closer look

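In the control line, Kdm5c stood apart in 1 culture. With the dye effect removed its ratio was -0.0523 in culture D, against 0.0376 to 0.0479 in the other 3, and the gap was 0.897 of the range, above Dixon's critical value. It was 1 of 46 genes examined, and chance gives such a gap in about 1 in 20.

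All 30 leading genes were called between the control line and the mean of the Kdm5c lines in limma's test of the difference, with adjusted p of at most 0.000464. They were picked on the control line's own ratio, which favours such a difference. The control line was higher by a log2 of 2.03 for Srgn, 1.60 for Cubn, 1.23 for Slc47a1, 1.20 for Aard, 1.18 for Stra8, 1.03 for Cyp1b1 and 1.03 for Dcaf12l1. It was higher by 0.87 for Ceacam1, 0.84 for Inhbb, 0.77 for Gbx2, 0.69 for Mest, 0.56 for Robo4, 0.55 for Crybg3, 0.40 for Plagl1 and 0.17 for Rdm1. Xlr4b, low in all 3 lines, was 0.50 higher in the control line.

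The control line minus the Kdm5c lines gave -1.72 for T, -1.40 for Fgf5, -1.37 for Ppp4r4, -1.20 for Krt18, -1.16 for Psmb8, -1.13 for Krt8, -1.11 for Pim2 and -1.08 for Gbp2. It gave -0.97 for Cldn7, -0.93 for Gbp1, -0.80 for Gbp3, -0.77 for Cldn6, -0.68 for Irf1 and -0.64 for Glrx. The mean of the Kdm5c lines covers lines that differ from each other, as for Aard, Pim2 and Fgf5.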

How the results depend on the processing

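The 30 leading genes were called with the same sign under all 15 alternatives that could be run on them, with a smallest size of 0.33 when probes of a gene were averaged. Counts moved more. With median centring in place of loess 988 genes were called (346 higher, 642 lower, so 35.02 percent higher against 47.92 percent with loess), and 687 between the control and Kdm5c lines. Without the dye term 3164 were called (1434 higher) and 2356 between lines. The arrays with the line in Cy5 alone gave 2741 (1220 higher, 1521 lower), 200 at 1.5-fold or more, 1142 between lines and a chromosome 8 median of 0.0649; those with it in Cy3 alone gave 160 at 1.5-fold or more and 2378 between lines. The chromosome 8 median was 0.0655 with offset 16, 0.0808 without the dimmest 25 percent of probes and 0.121 over brighter genes, an alternative chosen after seeing the data. Leaving out 1 control array gave 3485 to 4122 called genes (1593 to 1978 higher, 1892 to 2144 lower), 91 to 98 at 1.5-fold or more, 3106 to 3466 between lines and chromosome 8 medians of 0.0505 to 0.0576. The replicate block in place of the dye term gave 5192 called genes (2533 higher, 2659 lower) and 4414 between lines. Farsb (0.025), Zfp42 (-0.27), Dppa5a (-0.29) and Abcb1a (-0.19) changed sign with the line in Cy3 alone, and Pgk1 (0.19) with it in Cy5 alone. Of 80 list counts, higher and lower for each of 40 lists, 63 moved with median centring, 34 with Cy5 alone and 24 without the dye term; with median centring 8 antigen presentation and 9 immediate early genes were lower, and 62 named genes lost their call. Averaging probes lowered the size by over 1.5 times for genes that included Plagl1, Gata6, Pax6, Sfmbt2, Ceacam1, Inhbb, Xlr4b, Erap1, Krt7, Spry4, Spred1, Tbx3, Hoxd13, Ifih1, Samhd1, Aldoc, Tpi1, Zmat3, Zcchc11, Bmi1, Atf7ip, D14Abb1e, Eif2c1, Eif2c2, Mcl1, Fdft1, Sc4mol and Dicer1. Slide and scan date as a block were not run, since the files used here give none. The cause of these shifts was not tested. The IB10 RNA was taken as 1 preparation, so differences carried by it enter every ratio, and 1 polyclonal line stands for the control hairpin.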

Other observations

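Of 6988 gene probes with no symbol in the files, 922 were called in the control line over IB10 (13.2 percent, 515 higher and 407 lower), beside 8251 of 41174 gene probes in all. Of the 922, 9 differed by at least 1.5-fold. The probe MMAB036571 had a log2 ratio of -1.24 in the control line, -0.80 in shKdm5c#1 and 0.45 in shKdm5c#2. The probe MMAB012554 had -1.18 in the control line, 0.51 in shKdm5c#1 and -1.57 in shKdm5c#2. MMAB003757 was low in all lines, with -1.01 in the control line, -1.03 in shKdm5c#1 and -1.49 in shKdm5c#2. MMAB011447 was higher, with 0.90 in the control line, 0.45 in shKdm5c#1 and -0.11 in shKdm5c#2.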
